A study of Mus musculus with 62 samples.

Results

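The mitochondrial genome of the mouse encodes 13 proteins, 2 ribosomal RNAs and 22 transfer RNAs, and these are the 37 of the 47643 gene symbols in the deposited table whose symbol starts with mt-. They were taken by that symbol and by no measured value. All 13 protein genes had transcripts above 0 in every library. The 2 ribosomal RNA genes (mt-Rnr1 and mt-Rnr2) and all 22 transfer RNA genes were listed at 0 in every library, so the results below rest on the 13 messengers. The same held for every row of small nuclear RNA (1382), small nucleolar RNA (1439), microRNA (2146), nuclear ribosomal RNA (353) and miscellaneous RNA (553) genes, so a listed 0 says nothing of the level of these mitochondrial RNAs in the heart.

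Hearts were taken from female mice, 2 months old, after mock injection (Con), injection of melanoma cells that do not cause cachexia (NCAC) or injection of melanoma cells that do (CAC), at 2, 4, 6 and 8 weeks after injection. Cachexia is the wasting of body tissue that accompanies some cancers. The sample labels give the strain as C57BL6/J while the series' design text names NCI Ath/nude mice, and no gene deletion or drug is named for any group. Each group had 5 libraries, except CAC at week 8 with 7 and Con at week 4 with 4, because 1 Con library of week 4 (replicate 2) was left out. Every library has its own heart number in the labels, so libraries were taken as separate mice and p-values measure the spread between them.

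The circular mitochondrial genome is transcribed from both strands into long precursors that are cut into messengers, mostly at the transfer RNAs that lie between them. No transfer RNA lies between mt-Atp8 and mt-Atp6 or between mt-Nd4l and mt-Nd4, so the genes of each pair need not have separate RNAs. Below, a messenger means the transcripts counted for a single protein gene. The proteins are core subunits of complex I (NADH dehydrogenase), complex III (cytochrome bc1), complex IV (cytochrome c oxidase) and complex V (ATP synthase), while complex II is made from nuclear genes alone. Heart muscle is rich in mitochondria, and its contraction depends on their ATP. In bulk tissue, fewer cells of a type and less RNA per cell cannot be told apart.

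In the GENCODE M21 models of the mm10 genome the 13 genes lie between chrM:2751-3707 (mt-Nd1) and chrM:14145-15288 (mt-Cytb), each as a single exon. Of these, 12 are on the plus strand and mt-Nd6, at chrM:13552-14070, is on the minus strand. Neighbouring genes overlap at 4 places, and the sequences are shown for the 3 overlaps longer than 1 base because reads from shared bases can be counted for either gene. The end of mt-Atp8 and the start of mt-Atp6 share 43 bases (chrM:7927-7969), here in capitals in the whole of mt-Atp8, 204 bases at chrM:7766-7969.
mt-Atp8: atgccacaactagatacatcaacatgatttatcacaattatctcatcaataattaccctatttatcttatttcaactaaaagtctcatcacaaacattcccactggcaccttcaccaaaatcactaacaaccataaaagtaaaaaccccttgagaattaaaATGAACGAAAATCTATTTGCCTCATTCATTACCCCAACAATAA
The last 80 bases of mt-Nd4l (chrM:10094-10173) end in the 7 bases that it shares with mt-Nd4, in capitals.
mt-Nd4l: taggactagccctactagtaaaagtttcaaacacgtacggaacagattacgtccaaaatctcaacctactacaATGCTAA
The last 80 bases of mt-Nd6 (chrM:13552-13631, minus strand) end in 14 bases, in capitals, that lie opposite the end of mt-Nd5 on the other strand.
mt-Nd6: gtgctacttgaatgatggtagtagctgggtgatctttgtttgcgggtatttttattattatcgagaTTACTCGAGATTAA
The first 80 bases of mt-Nd1 (chrM:2751-2830) and mt-Nd3 (chrM:9459-9538), complex I genes whose levels are followed below, are given with the first codon in capitals, GTG and ATT in place of the usual ATG.
mt-Nd1: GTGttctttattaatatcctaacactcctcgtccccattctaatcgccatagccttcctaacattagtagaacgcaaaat
mt-Nd3: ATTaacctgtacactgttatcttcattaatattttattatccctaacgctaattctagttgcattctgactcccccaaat
The strand difference shows in the base composition. The mt-Nd6 messenger is 28.1% G and 5.97% C, where the other 12 are 5.88 to 16.1% G and 22.1 to 29.97% C. The libraries were made with a stranded kit, but whether the counting used strand is not given in the sources used here. Without strand, reads of mt-Nd6 and of RNA from the opposite strand, including mt-Nd5 beyond its end, cannot be told apart.

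Values are TPM, a transcript level per length in which each library sums to the same total, so they are shares of the measured RNA. The number of reads behind them was recovered from the steps between low values and ran, in units of 1000000, from 25.3 to 49.1 per library (median 46.2), with CAC week 2 replicates 3 (25.3) and 2 the shallowest. Mitochondrially encoded genes took 20.5 to 31.3% of these reads and 49.3 to 61.1% of TPM. Even the lowest gene, mt-Nd6, had 3950 to 11690 reads per library, so counting error was small beside the spread between libraries. The library left out held 89.1% of its TPM in these genes, against 56.8 to 59.2% in the other Con libraries of week 4. It also had 612 TPM of the myosin gene Myh6, against 3419 to 8033 in the other 61 libraries. Its messengers stood at 1.26 (mt-Nd6) to 1.73 (mt-Nd3) times the mean of the other 4.

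Of all symbols in the table, 12 of the 13 messengers held the 12 highest places by median TPM. The 3 complex IV genes led: mt-Co1 had a median of 119507 TPM over 61 libraries, mt-Co2 77457 and mt-Co3 69507. The ATP synthase gene mt-Atp6 followed at 59407. Then came mt-Cytb, the cytochrome b of complex III, at 42269 and mt-Atp8 at 41415, which did not keep their order, since mt-Cytb was the higher in 44 of 61 libraries. Of the complex I genes mt-Nd1 stood at 37520 TPM, mt-Nd2 at 30067, mt-Nd4 at 29458, mt-Nd4l at 26361, mt-Nd3 at 16169 and mt-Nd5 at 15663. Neither mt-Nd2 and mt-Nd4 (30 of 61 libraries) nor mt-Nd3 and mt-Nd5 (40 of 61) kept their order. The gene of the other strand, mt-Nd6, had a median of 713 TPM and was in 90th place, below nuclear genes such as the myoglobin gene Mb at 13803. Of the summed messenger level, complex IV genes held 46.9%, the 7 complex I genes 27.5%, the 2 complex V genes 18.03% and the complex III gene 7.58% (means of 61 libraries).

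The share of TPM in mitochondrially encoded genes was lower in CAC hearts than in Con hearts from week 2 on, and differed most at week 6. At week 2 the Con libraries held 60.6, 59.9, 57.9, 56.8 and 56.6%, and the CAC libraries 55.2, 54.2, 55.2, 55.2 and 55.4%. At week 6 the Con libraries held 60.9, 58.1, 59.4, 57.5 and 60.9% and the CAC libraries 49.3, 53, 50.3, 50.3 and 53.2%. The ranges did not meet at week 2, 4 or 6. At week 8 the 5 Con libraries held 61.1, 52.9, 58.9, 58.1 and 60.6%, and the 7 CAC libraries ran from 50.1 over a median of 52.1 to 55.7%. They overlapped there through the lowest Con library (replicate 2) and the highest CAC library (replicate 3).

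By group, Con hearts stayed at 58.4% ± 1.79 (SD, n = 5), 57.7% ± 1.03 (n = 4), 59.3% ± 1.59 (n = 5) and 58.3% ± 3.28 (n = 5) at weeks 2, 4, 6 and 8. NCAC hearts were at 57.3% ± 1.61, 57.5% ± 1.95, 57.7% ± 2.40 and 57.2% ± 1.06 (n = 5 each). CAC hearts were at 55.03% ± 0.485, 54.2% ± 1.39, 51.2% ± 1.77 (n = 5 each) and 52.2% ± 1.92 (n = 7). The NCAC and Con ranges overlapped in every week. As a share of reads instead of TPM, Con hearts of week 6 held 28.3% and CAC hearts 22.0%. These sums are given as a description, and the tests below are of single genes.

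**Figure D1:**
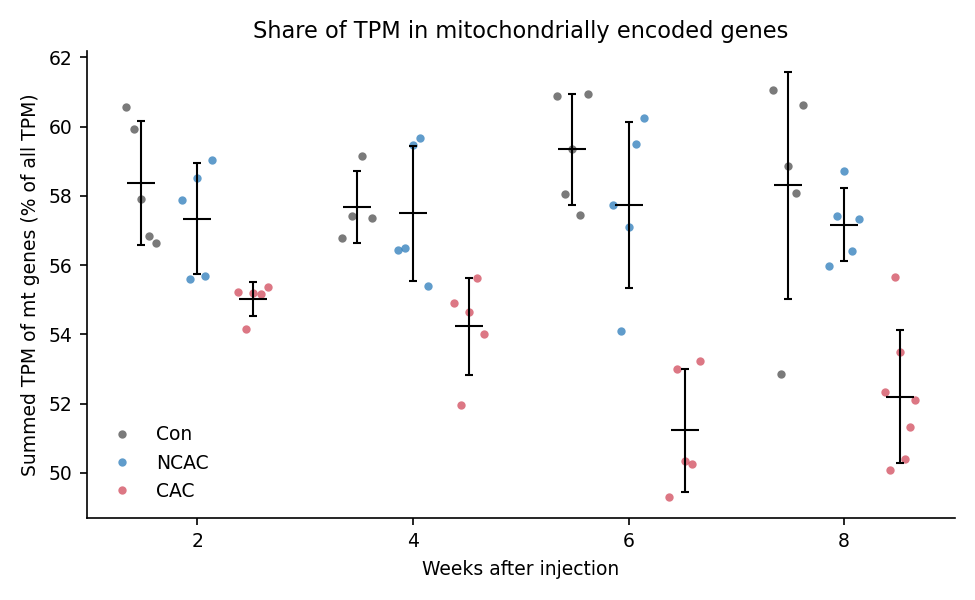
Share of TPM in mitochondrially encoded genes (percent, y axis) by week (x axis), with 1 point per library and bars for the mean ± SD of each group. The Con and NCAC means sit between 57.2 and 59.3%, while the CAC means are 55.03, 54.2, 51.2 and 52.2%.

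Single messengers were compared by limma on log2(TPM + 1) over all 12541 genes that passed the filter on low values, with p-values adjusted over those genes. In CAC against Con hearts, 0 of the 13 were called at week 2 (adjusted p below 0.05), where 1.84% of all genes were called. At an unadjusted p below 0.05 there were 6 of 13, beside 21.8% of all genes. At week 4, 3 were lower, where 2.36% of all genes were lower and 12.7% higher. At week 6, 10 were lower and 0 higher, where 5.25% of all genes were lower and 50.5% higher. At week 8, 10 were lower and 1 higher, where 9.98% of all genes were lower and 50.8% higher. TPM is a share, so a lower mitochondrial part and a higher part of the other genes cannot be told apart. The median difference of all tested genes was 0.21 at week 6 and 0.19 at week 8 on the log2 scale, and that of the 13 messengers -0.18 and -0.15. With each library rescaled by the median of ratios, which brings the median of all genes to 0.00 and 0.01, 12 of 13 were lower in each of these weeks and none was higher, where 17.9% and 24.8% of all genes were lower and 19.7% and 27% higher. The same 12 and 12 were counted on recovered reads scaled to library size and after rescaling to the genes outside the mitochondrial genome. On recovered reads, 1321 and 1860 of 12124 genes were lower at weeks 6 and 8, and 3485 and 4731 higher. Rescaled to the genes outside the mitochondrial genome, 2423 and 2859 of 12541 genes were lower, and 2106 and 3408 higher.

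Complex I genes included the largest falls. For mt-Nd1, the Con libraries of week 6 held 43889, 40507, 40784, 40666 and 40282 TPM and the CAC libraries 29452, 32379, 29347, 32567 and 34235. Every CAC library lay below every Con library, with a log2 difference of -0.39 (SE 0.063, limma adjusted p = 1.43e-06). At week 8 the Con libraries held 41667, 30674, 40831, 40277 and 42367 TPM, and the CAC libraries ran from 28172 over a median of 30110 to 35715. Con replicate 2 lay among the CAC libraries, and the other 4 Con libraries lay above all of them. The difference was -0.36 (SE 0.058, limma adjusted p = 8.60e-07), and -0.48 without Con replicate 2 and CAC replicate 3. Rescaled by the median of ratios it was -0.63 at week 6 and -0.57 at week 8.

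The complex I gene mt-Nd2 had 31840, 33344, 32722, 31190 and 34221 TPM in the Con libraries of week 6. In CAC it had 23749, 26486, 24137, 23236 and 25345 TPM. The ranges were apart, with a log2 difference of -0.41 (limma adjusted p = 1.52e-07), the lowest of the 13 in that week. At week 8 the difference was -0.22 (limma adjusted p = 4.71e-04), with the ranges overlapping. For mt-Nd3, Con hearts of week 6 had 18838, 16209, 16715, 15651 and 17285 TPM and CAC hearts 12215, 13678, 13147, 12311 and 13158. These ranges were also apart, at -0.39 (limma adjusted p = 1.84e-05). The week 8 difference of mt-Nd3, -0.18, was called (limma adjusted p = 0.0195) but did not hold when CAC replicate 4 or 1 of Con replicates 1, 3 and 5 was left out, with adjusted p as high as 0.109.

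The other plus-strand complex I genes differed less at week 6. There mt-Nd4 was lower by a log2 difference of -0.14 (limma adjusted p = 0.00394) and mt-Nd5 by -0.20 (0.0103), while mt-Nd4l at -0.13 was not called (0.0649). At week 8 mt-Nd4l was lower by -0.26 (limma adjusted p = 1.10e-04), which held with any 1 library left out. Its Con mean was 29935 TPM at week 8 and 26506 to 26967 in the earlier weeks. Its CAC mean was 25689 TPM at week 2 and 25019 at week 8. For mt-Nd4 the Con mean was also highest at week 8, at 31979 TPM against 29554 to 30556 before. The calls of mt-Nd4 (-0.11) and mt-Nd5 (-0.14) at week 8 were each lost without some library, up to limma adjusted p = 0.0749 and 0.165. The call of mt-Nd5 at week 6 did not hold with CAC replicate 3 or Con replicate 1 left out, where adjusted p reached 0.0619.

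All 3 genes of complex IV, the terminal oxidase, were lower at weeks 6 and 8. For mt-Co1, the catalytic subunit, Con hearts of week 8 had 128020, 120190, 122999, 120132 and 120981 TPM and CAC hearts ran from 103967 over a median of 110398 to 116682. These ranges did not meet, with a log2 difference of -0.15 (limma adjusted p = 7.51e-06), and at week 6 mt-Co1 stood at -0.18 (1.35e-06). At week 6 mt-Co2 differed by -0.27 (limma adjusted p = 1.34e-06) and mt-Co3 by -0.27 (9.65e-07), and at week 8 by -0.20 (4.23e-05) and -0.17 (2.83e-04). These calls held with any 1 library left out, but none held without the filter on low values. There limma adjusted p was 0.0697 to 0.389 at week 6 and 0.170 to 0.436 at week 8.

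The remaining messengers had the smallest differences. At week 6 mt-Atp6 (-0.11, limma adjusted p = 0.0253) and mt-Cytb (-0.11, 0.0380) were called, and both calls were lost without any of CAC replicates 1 or 3 or Con replicates 1 or 5, that of mt-Cytb also without Con replicate 3, up to 0.0914 and 0.153. For mt-Cytb the Con libraries of week 6 held 46145, 41869, 43654, 40634 and 45244 TPM and the CAC libraries 39713, 42122, 37308, 40744 and 42143, which overlapped. At week 8 mt-Atp6 (-0.09, limma adjusted p = 0.0395) was called and lost without 8 of the 12 libraries in turn, up to 0.104, and mt-Cytb (-0.06, 0.214) was not called. In neither week was mt-Atp8 called, at -0.11 (limma adjusted p = 0.0582) and -0.06 (0.242). Rescaled by the median of ratios, mt-Atp8 and mt-Cytb were also lower at week 8, at -0.28 and -0.27 (limma adjusted p = 0.00122 and 0.00499).

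**Figure D2:**
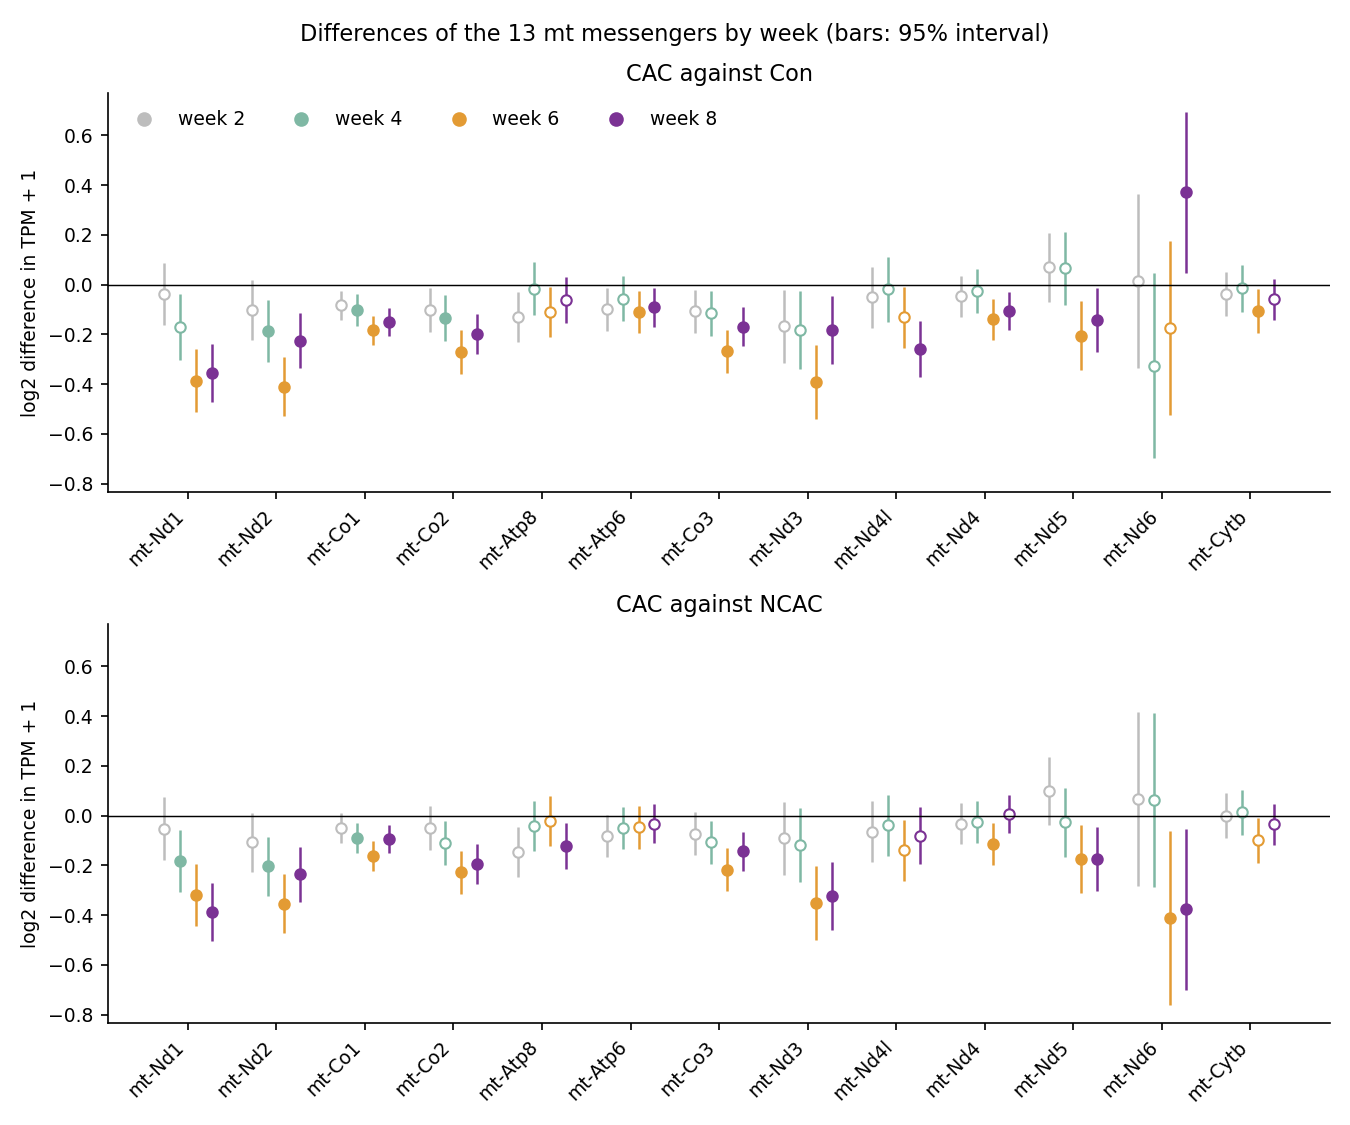
Log2 difference in TPM (y axis) of the 13 messengers (x axis, genome order) at each week, for CAC against Con and CAC against NCAC hearts, with bars for the 95% interval. Filled markers have a limma adjusted p below 0.05, and those of weeks 6 and 8 lie below 0 except mt-Nd6 against Con at week 8 (0.37).

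Against hearts of NCAC mice, which had also been injected with melanoma cells, the same CAC libraries gave 0 lower messengers at week 2 by limma, where 0.590% of all genes were called, and 1 at an unadjusted p below 0.05, beside 14.3% of all genes. At week 4, 3 were lower, where 2.84% of all genes were lower and 13.7% higher. At week 6, 9 were lower (6.85% of all genes lower, 47.7% higher), and at week 8 again 9 (8.76% lower, 57.4% higher). No messenger was higher in any week. The comparisons with Con and with NCAC share their CAC libraries, so they are not independent. At week 8 the NCAC libraries held 39754, 37592, 44825, 39733 and 37329 TPM of mt-Nd1. Every CAC library lay below these, with a log2 difference of -0.39 (limma adjusted p = 1.30e-07). For mt-Nd3 the NCAC libraries held 15638, 17485, 18450, 17276 and 15796 TPM, and those of CAC ran from 11871 over a median of 13418 to 16177, with 1 CAC library (replicate 3) inside the NCAC range. That difference was -0.32 (limma adjusted p = 5.78e-05). Rescaled by the median of ratios, 13 of 13 were lower in both weeks, where 19.7% and 24.3% of all genes were lower and 21.1% and 27.5% higher.

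The week 4 calls were few and rested on single libraries. Against Con, mt-Nd2 (-0.19, limma adjusted p = 0.0367), mt-Co1 (-0.10, 0.0211) and mt-Co2 (-0.13, 0.0412) were lower. Against NCAC, mt-Nd1 (-0.18, limma adjusted p = 0.0361), mt-Nd2 (-0.20, 0.0131) and mt-Co1 (-0.09, 0.0293) were lower. Without CAC replicate 2, the CAC library of that week with the lowest mt-Nd1 (29439 TPM against 34599 to 36323 in the other 4), 0 messengers were called against either group. Without Con replicate 4 also 0 were called against Con, and 1 without Con replicate 1, 3 or 5, and 1 against NCAC without NCAC replicate 1, 3 or 4.

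NCAC and Con hearts differed little. No messenger was called by limma at week 2, 4 or 6, and limma called 0% of all genes in these weeks. At an unadjusted p below 0.05 there were 0, 1 and 0 messengers, beside 8.00, 0.821 and 1.70% of all genes. At week 8, 1 messenger was higher, where 0.486% of all genes were higher and 0.223% lower.

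That messenger was mt-Nd6, the complex I gene of the minus strand and the only messenger called higher in CAC or NCAC hearts than in Con hearts. At week 8 the Con libraries held 547, 406, 464, 446 and 447 TPM, the NCAC libraries 625, 810, 854, 729 and 873, and the CAC libraries 780, 732, 947, 448, 359, 604 and 502. The Con libraries lay below every NCAC library, and the CAC libraries spread across both ranges. NCAC was higher than Con by a log2 difference of 0.75 (SE 0.174, limma adjusted p = 0.0236), CAC was higher than Con by 0.37 (0.0426), and CAC was lower than NCAC by -0.38 (0.0371). Each of these 3 calls was lost without some library, the first when NCAC replicate 2, 3 or 4 or Con replicate 3 or 5 was left out, with limma adjusted p reaching 0.0771. The second was lost without 8 of the 12 libraries in turn, up to 0.140, without both Con replicate 2 and CAC replicate 3 (0.22, 0.255), and after rescaling by the median of ratios (0.16, 0.492). The third was lost without CAC replicate 4, 5 or 7 or NCAC replicate 2, 3 or 5, up to 0.146. At week 6 CAC was also lower than NCAC (-0.41, limma adjusted p = 0.0420), while against Con the difference of -0.17 was not called (0.402). Leaving out replicate 3, 4 or 5 of either the CAC or the NCAC group ended that week 6 call, with adjusted p up to 0.178.

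The Con group of week 8 was the one that stood low in mt-Nd6. Con hearts had 769 ± 117 TPM (SD, n = 5) at week 2, 814 ± 64.8 (n = 4) at week 4, 677 ± 51.7 (n = 5) at week 6 and 462 ± 51.9 (n = 5) at week 8. In Con hearts mt-Nd6 was lower at week 8 than at week 2 by -0.73 (limma adjusted p = 0.0271), the only messenger of the 13 called in that comparison, where 0.447% of all genes were lower and 0.909% higher. With Con week 2 replicate 1 or Con week 8 replicate 3 or 4 left out it was not called, with limma adjusted p reaching 0.0646. The labels give the mice of every week the same age and give no batch, so week cannot be told apart from anything else that differed between the weeks. The ratio of mt-Nd6 to mt-Nd5, whose ends lie opposite each other, was 0.0287 ± 0.00227 (SD, n = 5) in Con hearts of week 8 and 0.0444 ± 0.00961 over all 61 libraries.

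**Figure D3:**
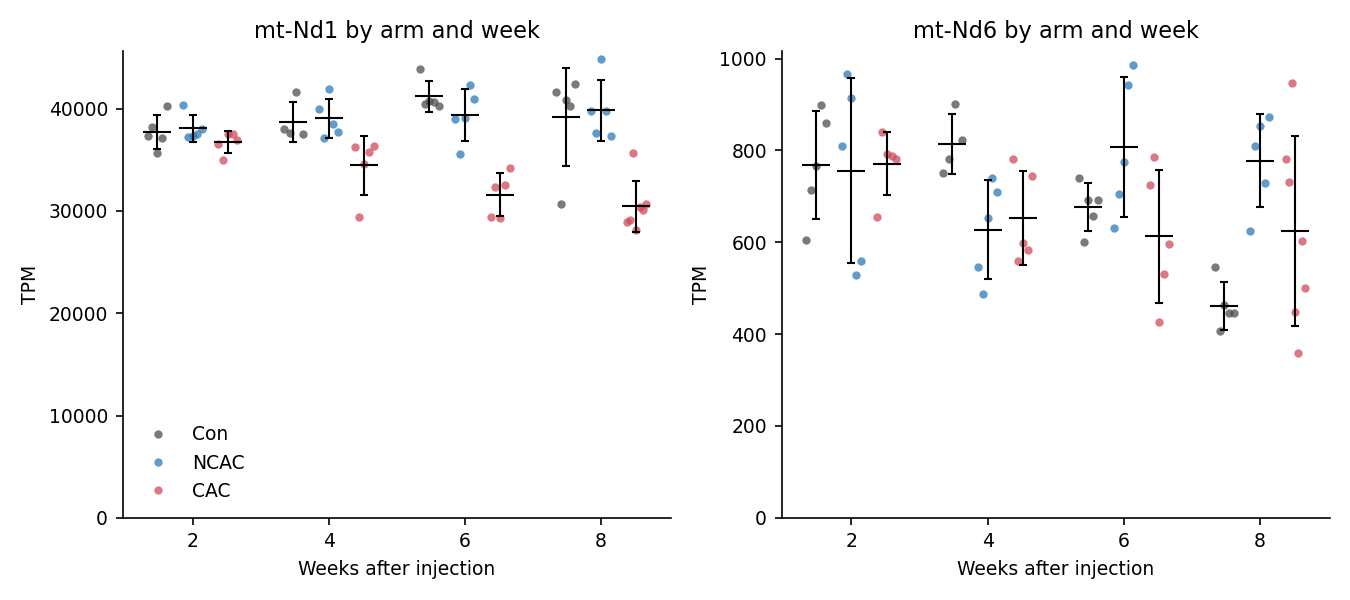
TPM (y axis, from 0) of mt-Nd1 and mt-Nd6 by arm and week (x axis), with 1 point per library and bars for the mean ± SD of each group. For mt-Nd1 the CAC means run from 36719 at week 2 to 30462 at week 8 while those of Con and NCAC stay between 37727 and 41226, and for mt-Nd6 the low group is Con at week 8 (462).

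Within the CAC arm, 8 messengers were lower at week 8 than at week 2, where 10.1% of all genes were lower and 42.6% higher. They included mt-Nd1 at -0.27 (limma adjusted p = 1.12e-04), mt-Nd3 at -0.23 (0.00492) and mt-Co2 at -0.17 (4.09e-04). In the NCAC arm limma called 0 messengers (0 at an unadjusted p below 0.05) and 0% of all genes. Tested as a difference of differences, the CAC to Con difference of mt-Nd1 was lower at week 8 than at week 2 by -0.32 (limma adjusted p = 0.00435), 1 messenger of 13, where 7.45% of all genes were lower and 19.1% higher. Without Con week 8 replicate 2 that count was 5, without CAC week 8 replicate 3 it was 3, and without both 6. Against NCAC the differences of mt-Nd1 (-0.34, limma adjusted p = 0.00210), mt-Nd5 (-0.27, 0.0199) and mt-Co2 (-0.15, 0.0499) were lower at week 8, where 5.92% of all genes were lower and 29.8% higher. Without CAC week 8 replicate 3 that count was 5, and without both libraries 6. The call of mt-Co2 was lost without most single libraries, up to limma adjusted p = 0.0929.

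To ask whether the messengers changed together, each was also expressed as a percent of the summed 13 messengers, a sum fixed at 100, so that a lower share of some must be met by a higher share of others. At week 6, CAC against Con, 4 genes had a lower share and 3 a higher one, where 2.48% of all genes were lower and 73.2% higher on this scale. Lower were mt-Nd2 (-0.20, limma adjusted p = 1.43e-04), mt-Nd3 (-0.18, 0.00496), mt-Nd1 (-0.17, 0.00137) and mt-Co2 (-0.06, 0.0404). The call of mt-Co2 was lost without CAC replicate 1, 2 or 3 or any of Con replicates 2 to 5, with adjusted p reaching 0.113. Higher were mt-Cytb (0.11, limma adjusted p = 0.00452), mt-Atp6 (0.10, 0.00799) and mt-Nd4 (0.07, 0.0214), the last not called without Con replicate 3 (0.0575). The Con libraries held 7.21, 6.98, 6.87, 7.08 and 6.61% of the pool in mt-Nd1 and the CAC libraries 5.97, 6.11, 5.83, 6.48 and 6.43%, with no overlap. The pool share of mt-Atp6 was 10.5% ± 0.190 in Con and 11.3% ± 0.176 in CAC hearts (SD, n = 5 each).

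At week 8, CAC against Con, 3 shares were called, where 5.20% of all genes were lower and 65.8% higher on this scale. The share of mt-Nd1 was lower (-0.20, limma adjusted p = 1.34e-04), and those of mt-Cytb (0.10, 0.00415) and mt-Nd6 (0.53, 0.00231) were higher. Without CAC replicate 3 the count was 8, without Con replicate 2 it was 7, and without both 8. Against NCAC at week 8, 7 were called, where 4.86% of all genes were lower and 68.6% higher. Lower were mt-Nd1 (-0.26, limma adjusted p = 2.35e-06), mt-Nd3 (-0.19, 0.00141), mt-Nd2 (-0.10, 0.0226) and mt-Co2 (-0.06, 0.0171), and higher were mt-Nd4 (0.14, 1.30e-05), mt-Atp6 (0.10, 0.00569) and mt-Cytb (0.10, 0.00499). The call of mt-Nd2 was lost without CAC replicate 2 or NCAC replicate 1 (up to 0.0666) and that of mt-Co2 without NCAC replicate 4 (0.0572). The NCAC libraries held 7.10, 6.55, 7.63, 7.04 and 6.51% of the pool in mt-Nd1, and the CAC libraries ran from 5.27 over a median of 5.87 to 6.42%, below all of them. At week 6 against NCAC, 4 shares were lower and 3 higher, where 3.44% of all genes were lower and 66.8% higher. No share was called between NCAC and Con by limma at weeks 2, 4, 6 or 8, where 0, 0, 0 and 0.0239% of all genes were called on this scale. At an unadjusted p below 0.05 there were 0, 1, 0 and 4 shares, beside 6.41, 0.638, 1.80 and 8.81% of all genes. Largest at week 8 was the share of mt-Nd6, 0.136% ± 0.0159 in NCAC and 0.0791% ± 0.00610 in Con hearts (SD, n = 5 each), with the ranges apart and a log2 difference of 0.77 (limma adjusted p = 0.0729). It was called with the compared groups alone (0.00530), without NCAC replicate 1 (0.0465), without Con replicate 2 (0.0161), and without both Con replicate 2 and CAC replicate 3 (0.00683), and adjusted p ranged up to 0.266 with the library left out for its high mitochondrial share kept.

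**Figure D4:**
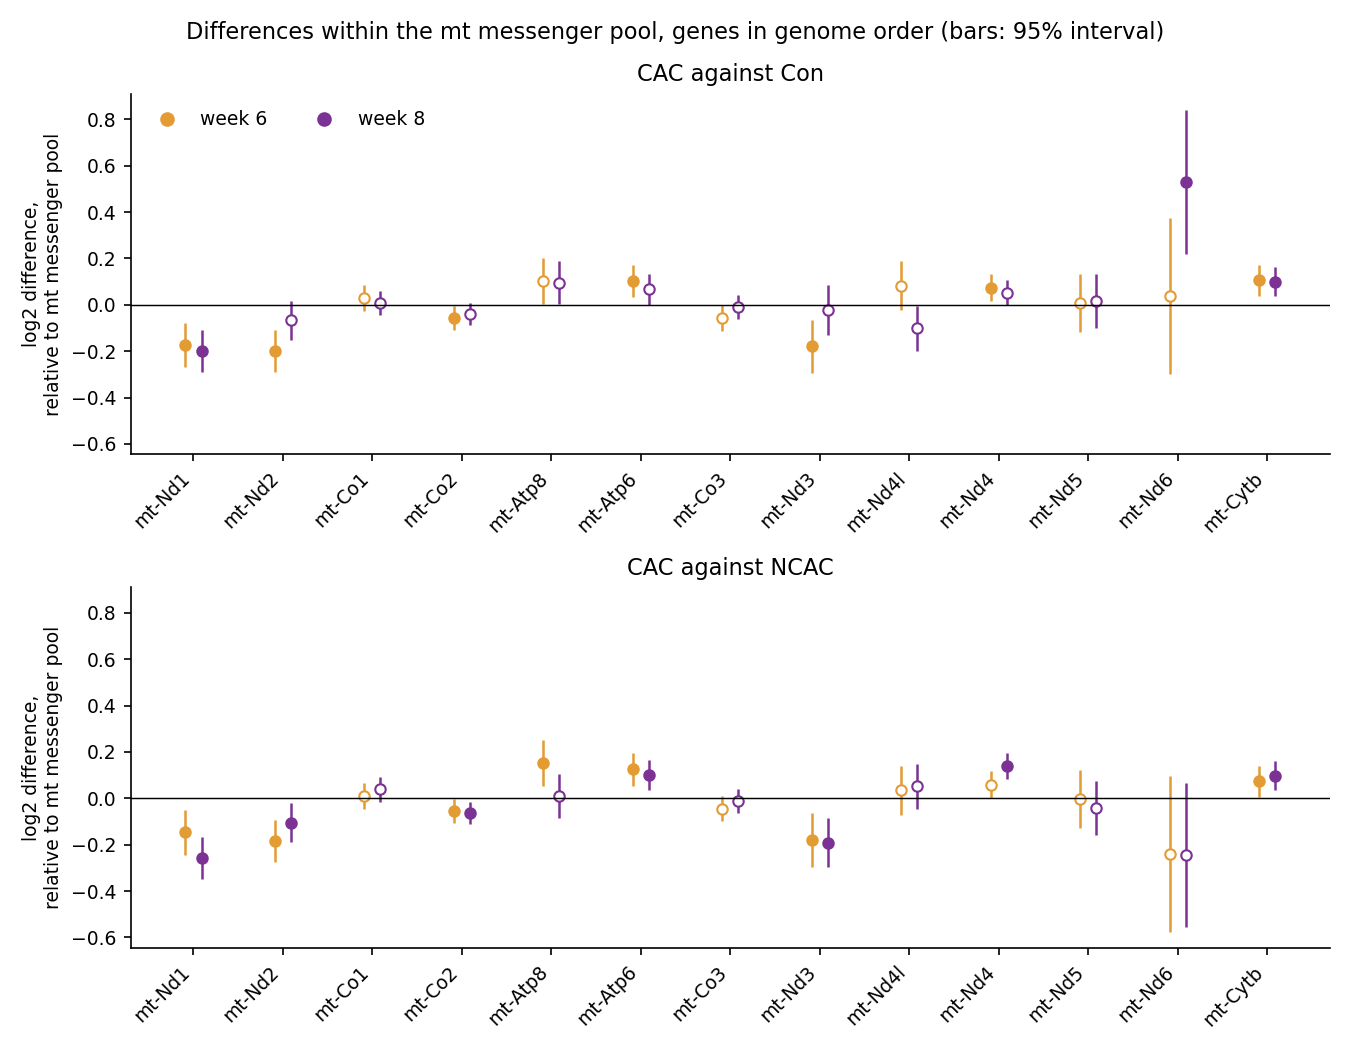
Log2 difference (y axis) in each messenger's share of the summed 13 messengers, genes in genome order (x axis), for CAC hearts of weeks 6 and 8, with bars for the 95% interval and filled markers for a limma adjusted p below 0.05. The share of mt-Nd1 lies below 0 in all 4 comparisons (-0.15 to -0.26) and that of mt-Cytb above 0 (0.07 to 0.11).

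Overlapping neighbours were also compared as ratios of their TPM. The 2 genes that share the most bases, mt-Atp8 and mt-Atp6, stood at a ratio of 0.690 ± 0.0402 (SD, n = 61 libraries). The ratio of mt-Nd4l to mt-Nd4, which also overlap, was 0.892 ± 0.0451 over all libraries, 0.936 ± 0.0489 in Con hearts of week 8 (n = 5) and 0.841 ± 0.0230 in CAC hearts of week 8 (n = 7). For mt-Nd4l at week 8 the Con libraries held 31296, 27032, 29257, 28619 and 33471 TPM, the NCAC libraries 24529, 26599, 25405, 25229 and 30492, and the CAC libraries ran from 22402 over a median of 25247 to 28634. The NCAC libraries thus overlapped those of CAC, and mt-Nd4l was not called between CAC and NCAC. The 7 complex I genes held 27.9% ± 0.606 of the pool in Con and 26.6% ± 0.366 in CAC hearts of week 6 (n = 5 each), and the complex V genes 17.6% ± 0.299 and 18.9% ± 0.587.

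Nuclear genes make the other subunits of the same complexes. Of 80 listed, 77 were found among the deposited symbols, and all of these passed the filter. In TPM at week 6, CAC against Con, 59 were higher and 1 lower, where 50.5% of all genes were higher and 5.25% lower. Their median log2 difference was 0.20 beside 0.21 for all tested genes. Rescaled by the median of ratios 1 was higher and 14 lower, where 19.7% of all genes were higher and 17.9% lower. The 14 lower were near that share of all genes. At week 8, 27 were higher and 10 lower, where 50.8% of all genes were higher and 9.98% lower. The median was 0.07 beside 0.19 for all genes. Rescaled, 1 was higher and 39 lower, where 27% of all genes were higher and 24.8% lower. Without Con replicate 2 and CAC replicate 3 the TPM counts were 38 and 8. Against NCAC at week 8, 3 were higher and 33 lower, where 57.4% of all genes were higher and 8.76% lower. The median was -0.09 beside 0.24. Rescaled, 0 were higher and 73 lower, where 27.5% of all genes were higher and 24.3% lower. The direction of these nuclear counts against Con thus depended on the scale. Rescaling by the median of ratios moved the differences of all genes down by a similar amount in both weeks. Messengers already below 0 in TPM could therefore only stay below 0, and their distance from the nuclear genes stayed about the same. In TPM against Con the median of the 13 messengers was -0.18 at week 6 and -0.15 at week 8. That of the nuclear genes was 0.20 and 0.07. Whether the messengers fell or the other genes rose cannot be told apart on these scales.

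By complex, CAC against Con at week 8 in TPM, 11 of 36 nuclear complex I genes were higher and 5 lower, as were 0 and 1 of 4 for complex II, 2 and 2 of 9 for complex III, 7 and 1 of 13 for complex IV and 7 and 1 of 15 for complex V, where 50.8% of all genes were higher and 9.98% lower. With single libraries left out the complex I counts ran from 7 to 17 higher and 2 to 6 lower, and those of complex II from 1 to 3 lower. Rescaled by the median of ratios, 0 were higher and 21 lower for complex I, 0 and 4 for complex II, 0 and 5 for complex III, 1 and 3 for complex IV and 0 and 6 for complex V, where 27% of all genes were higher and 24.8% lower. Of complex I, Ndufa10 (-0.28, limma adjusted p = 4.31e-06) and Ndufv3 (-0.25, 1.44e-04) were lower and Ndufa13 (0.28, 6.01e-05) and Ndufa2 (0.27, 5.12e-04) higher. Of complex II the catalytic subunit gene Sdha was lower (-0.22, limma adjusted p = 0.00187). Of complex III, Uqcrfs1, the Rieske iron-sulfur protein (-0.26, limma adjusted p = 2.90e-05), and Uqcrc1 (-0.26, 3.03e-05) were lower, and Uqcrh (0.29, 8.91e-06) and Uqcr10 (0.15, 0.00705) higher.

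Of complex IV, Cox7a1, the heart and skeletal muscle form of subunit 7a, had 956 ± 169 TPM in CAC hearts (SD, n = 7) and 1569 ± 130 in Con hearts (n = 5) at week 8. That log2 difference of -0.73 (limma adjusted p = 3.69e-11) was -0.94 after rescaling, and at week 6 it was -0.44 (2.40e-05). Cox8a (0.45, limma adjusted p = 4.43e-06), Cox6c (0.35, 5.45e-06) and Cox7b (0.28, 3.34e-05) were higher in TPM. Of complex V, Atp5g1, a gene for the membrane ring subunit c, was lower (-0.43, limma adjusted p = 6.54e-05), and Atp5g2 (0.25, 3.23e-05), another gene for that subunit, Atp5c1 (0.25, 4.14e-05) and Atp5l (0.26, 1.79e-04) were higher. Of the nuclear subunit genes named here as higher in TPM, only Cox8a (0.24) was called higher after rescaling.

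**Figure D5:**
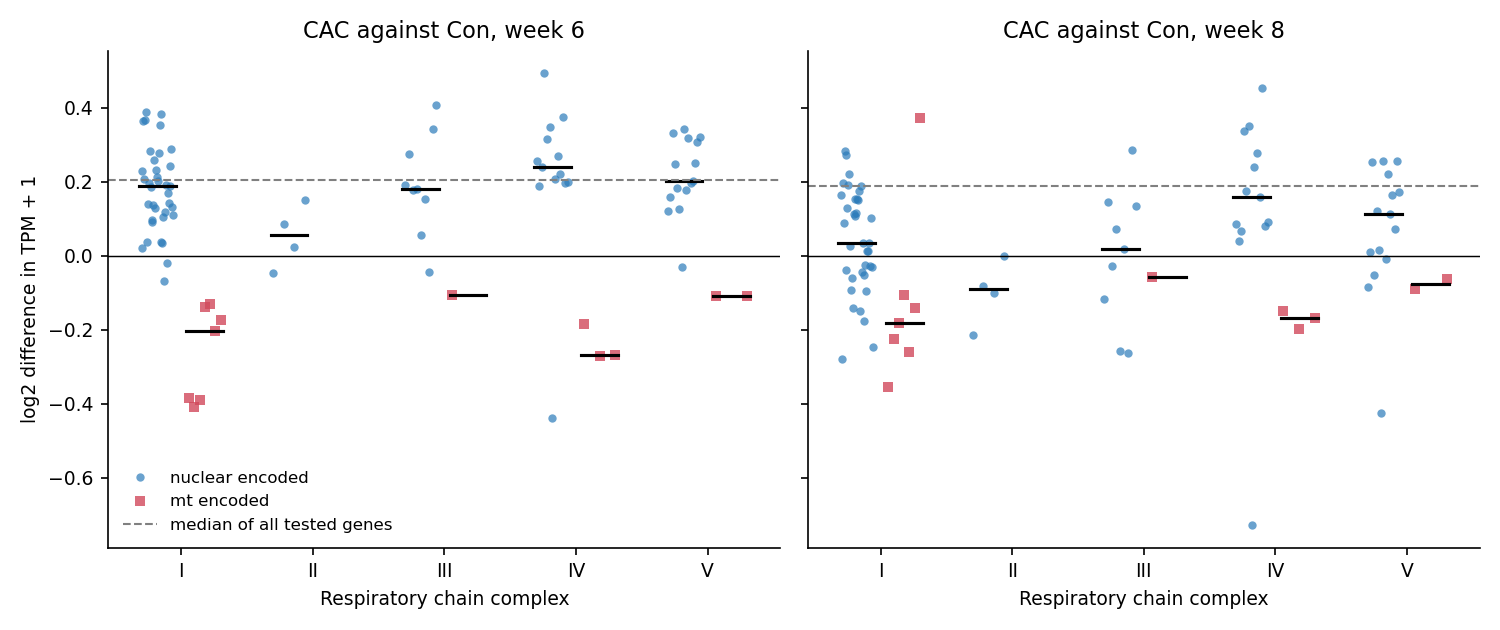
Log2 difference in TPM (y axis) of mitochondrially encoded and nuclear genes of respiratory chain complexes I to V (x axis), CAC hearts of weeks 6 and 8 against Con, with 1 point per gene. Against Con at week 6 most nuclear genes lie above 0 (59 of 77 called higher) and the 13 messengers below it.

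Of 10 nuclear genes for transcription of the mitochondrial genome, 2 were higher and 3 lower in CAC against Con hearts at week 8, where 50.8% of all genes were higher and 9.98% lower. After rescaling 0 were higher and 5 lower, where 27% of all genes were higher and 24.8% lower. Mterf2, of the mitochondrial transcription termination factor family, had 13.5 ± 3.10 TPM (n = 7) against 19.5 ± 1.60 (n = 5), a difference of -0.52 (limma adjusted p = 6.23e-06). Tfam, which packages the mitochondrial genome and starts its transcription (-0.18, limma adjusted p = 0.00773), and Polrmt, its RNA polymerase (-0.18, 0.00868), were also lower. The transcription factor gene Tfb2m (0.30, limma adjusted p = 0.00689) and Mterf1a (0.20, 0.0109) were higher in TPM but at 0.09 and 0.07 and not called after rescaling. The call of Polrmt was lost without Con replicate 2 (0.0832) and that of Tfb2m without Con replicate 3 (0.102). At week 6, 1 of these 10 genes was higher and 1 lower, where 50.5% of all genes were higher and 5.25% lower.

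Of 21 tested genes for processing and stability of mitochondrial RNA, 2 were higher and 5 lower at week 8, and 1 and 13 after rescaling, beside the same shares of all genes (50.8% higher and 9.98% lower in TPM, 27% and 24.8% rescaled). Ptcd2, a pentatricopeptide repeat gene (-0.54, limma adjusted p = 2.39e-07), Supv3l1, the helicase of the mitochondrial degradosome (-0.35, 6.49e-06), and Ptcd3 (-0.32, 3.28e-05) were lower. Rexo2, an exonuclease of short RNAs, was higher (0.44, limma adjusted p = 2.46e-06, and 0.23 after rescaling). Without Con replicate 2 and CAC replicate 3 the counts were 6 higher and 4 lower.

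Of 11 tested genes for replication and upkeep of the mitochondrial genome, 4 were higher and 0 lower at week 8, a lower share than the 50.8% of all genes that were higher. After rescaling 2 were higher and 3 lower, near the 27% and 24.8% of all genes. The 4 were Tk2, a mitochondrial thymidine kinase (0.48, limma adjusted p = 1.70e-05), Ssbp1, the single-strand binding protein (0.29, 8.49e-07), Polg2, the accessory subunit of the polymerase (0.25, 0.00260), and Rrm2b, a ribonucleotide reductase subunit (0.19, 0.0283). The call of Rrm2b was lost without CAC replicate 1, 2 or 6 or Con replicate 1, 3, 4 or 5, up to 0.0761. The first 2 were also called higher after rescaling, at 0.29 and 0.11. Polg2 at 0.13 and Rrm2b at -0.01 were not. Of 12 regulators of mitochondrial biogenesis, 3 were higher and 3 lower, and 0 and 7 after rescaling, beside 50.8% and 9.98% of all genes in TPM and 27% and 24.8% rescaled. Perm1, a muscle regulator of oxidative genes, had 97.7 ± 24.1 TPM (n = 7) in CAC and 164 ± 16.0 (n = 5) in Con hearts, a difference of -0.77 (limma adjusted p = 1.41e-07). The coactivator gene Ppargc1b (-0.46, limma adjusted p = 0.0101) and the receptor gene Esrrb (-0.37, 9.02e-04) were lower and the transcription factor gene Yy1 higher (0.32, 3.31e-04). Leaving out single libraries gave 1 to 5 higher and 3 to 4 lower in this list.

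Sums of markers of some other cell types also differed between the groups, in both directions. Lymphocyte sums were 1.12 to 1.96 TPM in CAC and 2.37 to 4.92 in Con at week 8, and overlapped at week 6 (1.11 to 1.77 and 1.59 to 3.07). Mural (298 to 441 and 421 to 530) and endothelial sums (226 to 292 and 263 to 331) overlapped at week 8, as did neutrophil, adipocyte and blood sums. Summed over 9 macrophage markers, all detected, TPM ran from 468 over 797 to 940 in CAC and from 218 over 286 to 315 in Con hearts at week 8, and all 9 were higher. At week 6 the macrophage sums were 442 to 738 in CAC and 202 to 326 in Con, again with 9 higher. Of all genes, 50.8% were higher and 9.98% lower in TPM at week 8, and 50.5% and 5.25% at week 6. These shares also stand beside the counts of the next lists. Over 7 fibroblast markers the sums were 713 to 1416 in CAC and 526 to 658 in Con at week 8. At week 6 they were 775 to 1229 and 536 to 641, apart in both weeks. In TPM 2 of 7 were called higher and 0 lower in each week, a lower share of higher calls than among all genes. After rescaling 2 were higher and 1 lower at week 6, where 19.7% of all genes were higher and 17.9% lower. Over 7 skeletal muscle markers they were 28 to 236 in CAC and 235 to 899 in Con at week 8, and 54.9 to 189 and 182 to 911 at week 6, and 1 of the 2 that passed the filter was lower in each week. Over 4 atrial markers they were 68.7 to 1530 in CAC and 97.8 to 252 in Con at week 8, which overlapped, and the 1 that passed the filter was higher in TPM and not called after rescaling.

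Summed over 12 cardiomyocyte markers, all detected, TPM was 29952 to 39835 in CAC and 38916 to 48214 in Con at week 8, with 1 higher and 7 lower, where 50.8% of all genes were higher and 9.98% lower. Rescaled by the median of ratios, 1 was higher and 10 lower, where 27% of all genes were higher and 24.8% lower. At week 6 the sums were 42179 to 47693 in CAC and 37929 to 43611 in Con, with 6 higher and 0 lower, a share of higher calls near the 50.5% of all genes. The median difference of these 12 was 0.13 beside 0.21 for all genes, and after rescaling it was -0.12, with 1 higher and 2 lower. Of all genes, 19.7% were higher and 17.9% lower after that rescaling.

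The Con library of week 8 with the low messenger share (replicate 2) had the highest cardiomyocyte sum of its group, 48214 against 38916 to 44334, and the highest fibroblast sum, 658 against 526 to 587. The CAC library with the high share (replicate 3) also had the highest cardiomyocyte sum of its group, 39835 against 29952 to 36483. It had the lowest fibroblast sum, 713 against 1117 to 1416, the lowest macrophage sum, 468 against 722 to 940, and 32988 TPM in blood markers against 166 to 6630. The part of cell composition in the messenger differences was not tested.

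Nuclear copies of mitochondrial DNA could take reads from these genes. In the reference, 7 annotated pseudogenes (Gm29216, Gm28661, Gm10222, Gm28437, Gm28438, Gm28439 and Gm10925), between chr1:24611535-24612410 and chr1:24615706-24616197, match parts of mt-Co1, mt-Co2, mt-Nd4l, mt-Co3, mt-Nd3, mt-Nd4 and mt-Atp6 at 99.7 to 100% identity. All 7 were listed at 0 in every library, so the table assigns these copies no reads, and how reads that fit both places were treated is not given in the sources used here. Another listed symbol, Gm7120, for which no sequence was compared, had 2.39 ± 0.758 TPM in CAC (n = 7) and 1.82 ± 0.237 in Con hearts (n = 5) at week 8 and was not called (limma adjusted p = 0.0952).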

How the data were processed

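RNA of 62 hearts was sequenced from stranded mRNA libraries after Trizol extraction, per the labels' protocols. The authors deposited a single table of TPM values, mapped to mm10 per the submitters' processing notes. The aligner, counter and annotation are not given in the sources used here, and gene models and sequences were taken from GENCODE M21. Groups and replicate numbers came from the labels, which give no batch. Their protocol text also speaks of LLC cells, which no sample's label names.

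From the deposited TPM, log2(TPM + 1) was fitted with limma 3.58.1 (limma-trend, R 4.3.3, data.table version 1.17.8) over 61 libraries and the 12541 genes that reached 1 TPM in 5 or more libraries. The 24 mitochondrial ribosomal and transfer RNA genes did not pass. Benjamini-Hochberg adjusted p-values over these genes, 1 comparison at a time, were called below 0.05. Shares of the messenger pool were fitted the same way. Reads were recovered from the TPM steps: 78.9 to 80.5% of values below 50 reads were within 0.05 of a whole number, where 10% would be by chance. Alternatives were no filter (23360 genes), a 5 TPM filter (8788 genes), a pseudocount of 0.1, rescaling by the median of ratios (10432 genes) or to the genes outside the mitochondrial genome, recovered reads scaled to library size (12124 genes), a replicate block, the compared groups alone, and libraries left out or kept. The scripts were tested on simulated data.

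The genes and lists were chosen with earlier results of these data known. All 13 messengers were named, and of each nuclear list every called gene where 5 or fewer were called, otherwise the 4 with the smallest p in CAC against Con at week 8. Pseudogenes were matched with blastn 2.17.0, and figures drawn with Python 3.11.15, pandas 2.3.3, numpy 2.4.6 and matplotlib 3.10.9.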

Additional observations from a re-analysis of the deposited data

Results flagged for a closer look

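Within each group, the share and each messenger were searched for a library far from the others by Dixon's test. Of 168 sets, 29 held one, where chance gives about 1 in 20 (8.4). The sets share their libraries and the share sums the messengers, so they are not independent and 8.4 is only a rough guide. Of these, 12 were Con week 4 replicate 2, the library left out of every comparison, with 89.1% of TPM in these genes and 58644 TPM of mt-Nd1, 46332 of mt-Nd2, 183501 of mt-Co1, 124473 of mt-Co2, 65202 of mt-Atp8, 94571 of mt-Atp6, 112811 of mt-Co3, 29983 of mt-Nd3, 40901 of mt-Nd4l, 46024 of mt-Nd4 and 65835 of mt-Cytb. Of its 13 shares of the messenger pool, 7 lay within the range of the other 4 libraries, such as mt-Nd1 (6.59% against 6.54 to 7.04%). Above that range were mt-Nd3 (3.37% against 2.82 to 3.09%), mt-Co3 (12.7% against 12.2 to 12.5%) and mt-Co2 (13.98% against 13.8 to 13.95%), and below it mt-Nd6 (0.115% against 0.132 to 0.152%), mt-Co1 (20.6% against 20.9 to 21.8%) and mt-Nd5 (2.38% against 2.42 to 2.82%).

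Con week 8 replicate 2 was low in mt-Nd1 (30674 TPM), mt-Nd2 (24328), mt-Co2 (65181) and mt-Co3 (60616), and Con week 8 replicate 1 was high in mt-Atp6 (65792). CAC week 8 replicate 3 was high in mt-Nd1 (35715) and mt-Co2 (75662), and replicate 4 in mt-Atp6 (65044). CAC week 4 replicate 2 was low in mt-Nd1 (29439) and mt-Nd2 (22574), and replicate 3 high in mt-Co1 (117277). The other sets were mt-Nd3 in Con week 2 replicate 1 (20408), mt-Nd1 in NCAC week 2 replicate 1 (40394), mt-Atp8 in NCAC week 2 replicate 5 (47597), the share in CAC week 2 replicate 2 (54.2%), and mt-Nd1 (43889) and mt-Nd5 (18673) in Con week 6 replicate 1.

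The CAC difference changed from week 2 to week 8 for mt-Nd1 against Con (-0.32) and for mt-Nd1 (-0.34), mt-Co2 (-0.15) and mt-Nd5 (-0.27) against NCAC, each by limma's test of the difference itself.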

How the results depend on the processing

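Counts are of the 13 messengers called. Without a filter they were 0 (main 3) against Con at week 4, 3 (10) at week 6 and 3 (11) at week 8, 0 (3), 3 (9) and 3 (9) against NCAC, 2 (8) for CAC week 8 against week 2, and 0 (1) and 0 (3) for the week 8 minus week 2 differences against Con and NCAC. Of 23360 genes, 294, 741 and 1589 were then lower and 1287, 6584 and 7207 higher against Con at weeks 4, 6 and 8. With Con week 4 replicate 2 kept the messenger counts were 7, 6 and 6 against Con at weeks 4, 6 and 8, 0 and 4 against NCAC at weeks 4 and 8, 0 for NCAC against Con at week 8, 2 and 0 for week 8 against week 2 in CAC and Con, and 0 and 1 for the week 8 minus week 2 differences, and in pool shares 1 against Con and 0 against NCAC at week 4. Against Con at week 4, 199 of 12543 genes were then lower and 7225 higher, with a median difference of 0.37. In the main fit 296 of 12541 were lower and 1587 higher. With the compared groups alone the messenger counts were 0 and 6 against Con at weeks 4 and 8, 0 against NCAC at week 4, and 4 and 0 for week 8 against week 2 in CAC and Con, and in pool shares 0 and 4 against NCAC at weeks 4 and 8 and 1 for NCAC against Con at week 8. Of 12541 genes, 168 and 1047 were then lower and 1298 and 5011 higher in TPM against Con at weeks 4 and 8. Median-of-ratios rescaling gave 1 and 1 messengers at week 4 against Con and NCAC, recovered reads scaled to library size 1 against Con at week 4, rescaling without mitochondrial genes 5 against NCAC at week 4, and the 5 TPM filter 2 for the difference against Con. By the median of ratios, 873 and 1008 of 12541 genes were lower at week 4 against Con and NCAC, and 1058 and 1247 higher. Without Con week 8 replicate 2 and CAC week 8 replicate 3 the messenger counts were 3 for NCAC against Con at week 8, 6 and 6 for the differences, and in pool shares 8 against Con and 1 for NCAC against Con at week 8. For NCAC against Con at week 8, 82 of 12541 genes were then lower and 345 higher in TPM. The cause was not tested.

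With 1 library left out the counts against Con were 0 to 1, 0 to 3, 7 to 12 and 7 to 10 at weeks 2, 4, 6 and 8, against NCAC 0 to 0, 0 to 3, 6 to 11 and 7 to 9, and NCAC against Con 0 to 0 at weeks 2, 4 and 6 and 0 to 2 at week 8. The 7 at week 8 against Con came without Con replicate 1 or 5, and the 1 at week 2 without Con replicate 5. NCAC against Con at week 8 gave 0 without NCAC replicate 2, 3 or 4 or Con replicate 3 or 5, and 2 without NCAC replicate 5 or Con replicate 2. Week 8 against week 2 gave 5 to 8 in CAC (5 without CAC week 2 replicate 2 or week 8 replicate 5), 0 to 0 in NCAC and 0 to 1 in Con. The differences gave 1 to 5 against Con (2 without Con week 2 replicate 5 or CAC week 8 replicate 4) and 2 to 5 against NCAC. In pool shares the ranges were 0 to 1, 0 to 1, 5 to 9 and 3 to 8 against Con, 0 to 0, 0 to 2, 5 to 6 and 6 to 8 against NCAC, and 0 to 0, 0 to 0, 0 to 0 and 0 to 1 for NCAC against Con (1 without NCAC week 8 replicate 1 or Con week 8 replicate 2). The 1 against Con came without Con week 2 replicate 5 and without Con week 4 replicate 1, and the 2 against NCAC at week 4 fell to 0 or 1 without CAC replicate 2, 3 or 4 or any NCAC replicate. Depth was not limiting, with at least 3950 reads of each messenger in every library.

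A replicate block gave 1 (3) against Con at week 4, 5 (8) for CAC week 8 against week 2, 10 and 8 against Con at weeks 6 and 8, and 8 and 8 against NCAC. In no comparison did every same-numbered pair of libraries correlate above 0.1 in its deviations from the group means (lowest -0.276 for CAC against Con and highest 0.412 for CAC against NCAC, both at week 4), so the numbers were not taken as a pairing. The only gene whose difference changed sign with a call was mt-Nd4, CAC against NCAC at week 8, from 0.01, not called, to -0.26 (limma adjusted p = 0.00444) after median-of-ratios rescaling.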
